A study of Mus musculus with 2 samples.

Results

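The potassium channel family of the mouse was taken as all genes whose symbol starts with Kcn and that a RefSeq accession on the array identifies. It held 78 genes, read by 104 probes, out of 16535 genes with a symbol on the array. Of the 78, 69 were read by a probe whose signal stood well above background in each channel of each array. These are called measured here, and each took the value of its brightest such probe. A further 20 Kcn symbols of the RefSeq table matched no probe and were not analysed here. Hippocampal RNA came from male C57BL/6J mice that were 11 weeks old, weighed 26 to 28 g and were housed singly. One group ate chow with 0.5% (w/w) of a powder that contained 2% astaxanthin, a red carotenoid from the alga Haematococcus pluvialis (the ASX group), and the other ate chow with 0% of it and placebo powder (the control group), both for 4 weeks after 1 week of acclimatization. Both RNAs were hybridised together on each of 2 Agilent two-colour arrays, with ASX in Cy5 and control in Cy3 on array 1 and the dyes exchanged on array 2. Each array was titled with 4 mice, and how their RNA was combined is not given in the sources used here. The arrays were therefore treated as a dye swap of 1 pair of RNA samples, with the spread between them read as technical. No test of the diet was possible.

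Potassium channels pass potassium across the membrane, and so set the resting potential, the shape of the action potential and the rate of firing. Voltage-gated channels assemble from pore subunits of the Kv1 to Kv4 groups (Kcna to Kcnd) with cytoplasmic or membrane-spanning partners, and the Kcnq channels carry the M-current. Calcium- and sodium-activated channels (Kcnm, Kcnn, Kcnt) end bursts of firing, tandem-pore channels (Kcnk) carry leak current, and inward rectifiers (Kcnj) include the G-protein-gated GIRK channels through which GABA-B, adenosine and serotonin receptors silence hippocampal neurons.

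The family as a whole lay close to equal levels in both RNAs, with higher values in the ASX RNA for a few neuronal channel genes. Kcnj3, the gene of the GIRK1 subunit, and Kcna4, the gene of the A-type channel Kv1.4, were higher in the ASX RNA by more than 1.2-fold on each array, except that Kcna4 did not pass with median centring and neither passed with scaling on the control RNAs added to the samples (spike-ins). No member was lower by as much on each array. The median log2 ratio of ASX over control was -0.018 over the 69 measured members, -0.005 on array 1 and -0.017 on array 2, beside -0.019 over all 13320 measured genes with a symbol. The mean of the arrays was within 1.2-fold for 67 of the 69 members (97.1%), as for 98.6% of all genes. The plot of the members by subfamily shows 66 of the 69.

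**Figure D1:**
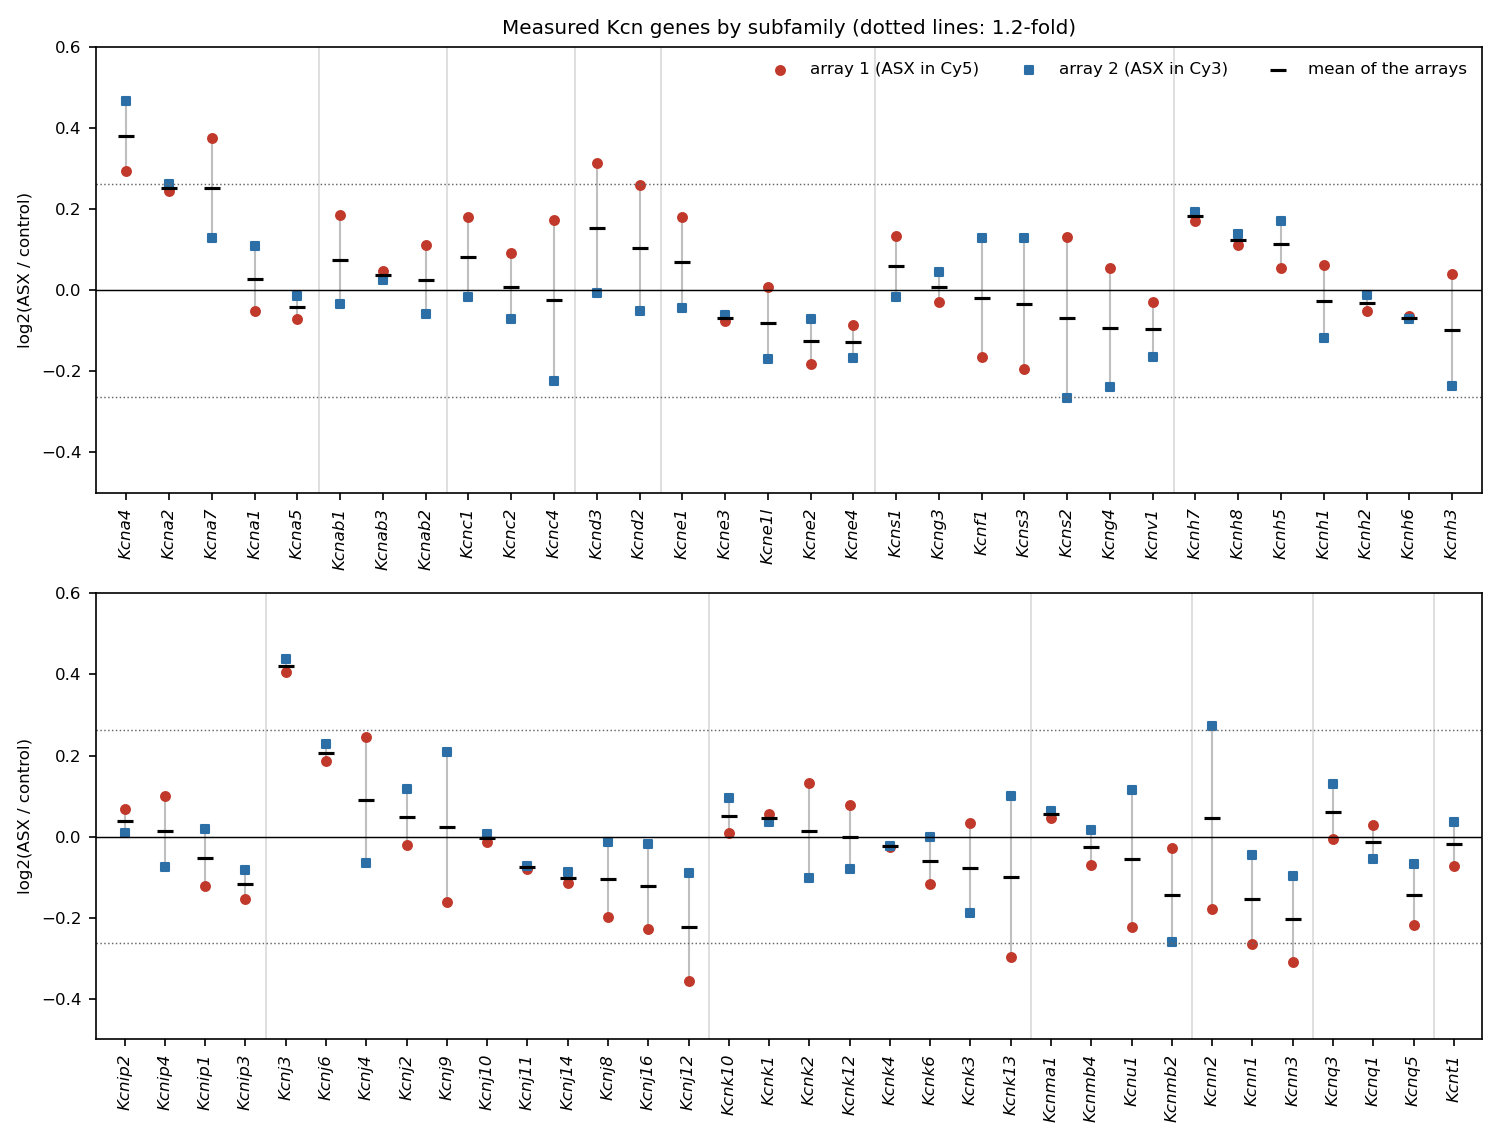
Log2 ratio of ASX over control (vertical axis) for 66 of the 69 measured Kcn genes (horizontal axis), grouped by subfamily and ordered within it by the mean. Red circles are array 1, blue squares array 2, black bars their mean, and dotted lines mark 1.2-fold. Kcnj3 and Kcna4 lie above the upper line on both arrays, and no plotted gene lies below the lower line on both. Other scalings, described with the settings, shift these values.

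Counts used a rule of size, not a test: the ASX over control ratio had to reach 1.2-fold, with the same sign, on array 1 and again on array 2. By this rule 2 of 69 members were higher (2.90%), as 0.233% of all genes were, and 0 were lower, as 0.330% of all genes were. At 1.5-fold no member passed in either direction, beside 0.0300% of all genes higher and 0.0300% lower. When the ratio was read by dye instead of diet, no member was 1.2-fold apart on each array, while 1.16% of all genes were brighter in Cy5 and 0.278% brighter in Cy3 on both arrays. Above 0 on both arrays were 14 members (20.3%, 14.3% of all genes), below 0 on both were 20 (29.0%, 26.4% of all genes), and the arrays had opposite signs for the other 35. Across the 69 members the arrays correlated at a Pearson r of 0.18 and a Spearman rho of 0.06, and across all genes at -0.25 and -0.27. These are correlations across genes that share the slide and, as treated here, both RNA samples. The SD between the arrays, a technical spread, had a median of 0.108 over the members on the log2 scale and ran up to 0.318. The mean ratio was larger in size than its dye part in 34 of 69 members (49.3%), as in 40.7% of all genes. By construction these are the genes with the same sign on both arrays, so this count is no separate check.

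**Figure D2:**
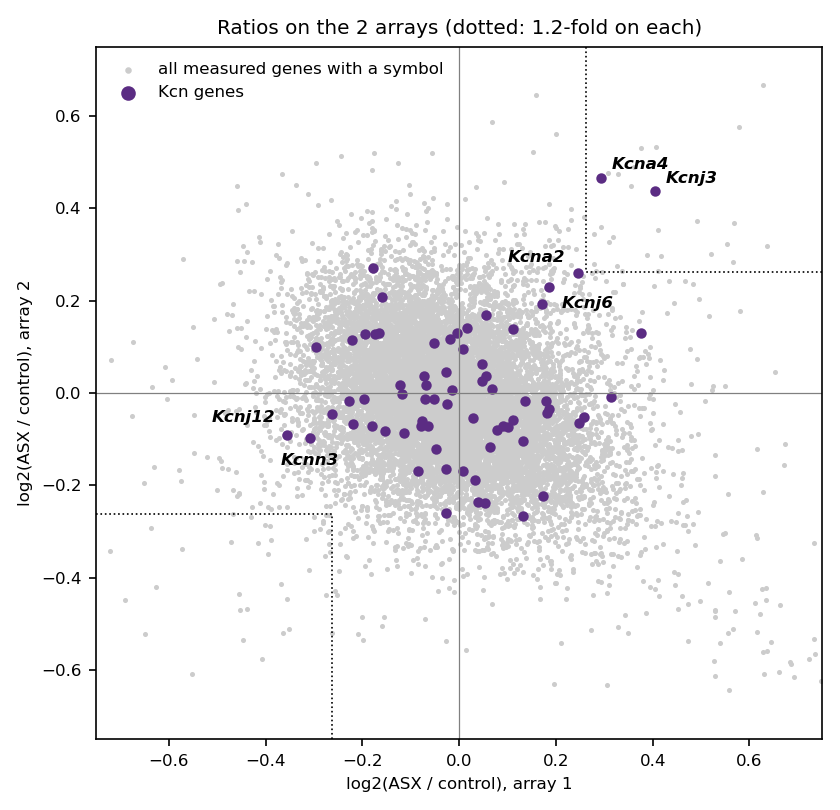
Log2 ratio of ASX over control on array 1 (horizontal axis) against array 2 (vertical axis) for the 69 measured Kcn genes (purple) and all 13320 measured genes with a symbol (grey), with both axes cut at 0.75 and 25 genes outside them. The dotted corners enclose genes at least 1.2-fold apart on each array, which hold Kcnj3 and Kcna4 on the high side and no Kcn gene on the low side.

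Among the inward rectifiers, 11 of 14 Kcnj genes were measured, and they held both the highest and the lowest member of the family. Kcnj3 had a normalised log2 intensity of 9.36 on array 1 and 9.40 on array 2 in the ASX RNA, against 8.95 and 8.96 in the control RNA. Its log2 ratios of 0.405 and 0.438 gave a mean fold of 1.34 with an SD between arrays of 0.023, a technical spread. Kcnj6, which encodes GIRK2, the usual partner of GIRK1 in the hippocampus, had 8.54 and 8.47 in the ASX RNA, against 8.36 and 8.24 in the control RNA. Its log2 ratios were 0.186 and 0.229, a mean fold of 1.15, below the 1.2-fold rule. Its probe was printed in 10 spots, over which the mean ratio had an SD of 0.046, and its second probe was not measured. Kcnj9, the gene of GIRK3, had ratios of opposite sign, -0.160 and 0.209, with the Cy3 label the brighter on both arrays, and Kcnj5, the gene of GIRK4, was not well above background for either RNA.

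The promoters of Kcnj3 and Kcna4, the pair that passed the size rule, are shown with those of Kcna2, the member just outside it, and Kcnj12, the member with the lowest mean ratio. Each is the RefSeq window around a transcript start (GRCm38.p6, plus strand), from 250 bases before it to 50 after, at chr2:55435720-55436019 for Kcnj3, chr2:107290339-107290638 for Kcna4, chr3:107101317-107101616 for Kcna2 and chr11:61065554-61065853 for Kcnj12. The start of Kcna4 is the outermost one annotated for the gene. Those of the other 3 lie inside the annotated gene, 24172 bases from its outermost start in Kcnj3, 10684 in Kcna2 and 43240 in Kcnj12, and which start the hippocampus uses was not measured. Capitals mark matches on either strand to GGGCGG (GC box), TGACG (core of the cAMP response element), TATAAA or CCAAT.
Kcnj3: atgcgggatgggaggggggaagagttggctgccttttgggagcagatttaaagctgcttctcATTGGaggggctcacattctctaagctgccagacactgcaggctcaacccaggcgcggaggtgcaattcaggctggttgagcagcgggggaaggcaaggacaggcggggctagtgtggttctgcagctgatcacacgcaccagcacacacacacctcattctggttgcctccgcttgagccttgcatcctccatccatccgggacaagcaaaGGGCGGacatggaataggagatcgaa
Kcna4: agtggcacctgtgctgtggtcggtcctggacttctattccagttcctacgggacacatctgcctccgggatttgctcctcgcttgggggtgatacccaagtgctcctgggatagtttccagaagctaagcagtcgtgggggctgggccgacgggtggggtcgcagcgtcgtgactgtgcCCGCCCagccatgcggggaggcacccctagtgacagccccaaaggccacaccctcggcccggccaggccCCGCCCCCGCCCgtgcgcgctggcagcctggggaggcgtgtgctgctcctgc
Kcna2: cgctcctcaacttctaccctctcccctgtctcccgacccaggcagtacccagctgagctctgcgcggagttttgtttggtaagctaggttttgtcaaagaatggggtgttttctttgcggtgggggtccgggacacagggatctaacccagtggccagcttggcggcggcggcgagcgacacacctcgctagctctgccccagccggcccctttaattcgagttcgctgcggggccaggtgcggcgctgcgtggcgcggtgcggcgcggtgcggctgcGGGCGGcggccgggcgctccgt
Kcnj12: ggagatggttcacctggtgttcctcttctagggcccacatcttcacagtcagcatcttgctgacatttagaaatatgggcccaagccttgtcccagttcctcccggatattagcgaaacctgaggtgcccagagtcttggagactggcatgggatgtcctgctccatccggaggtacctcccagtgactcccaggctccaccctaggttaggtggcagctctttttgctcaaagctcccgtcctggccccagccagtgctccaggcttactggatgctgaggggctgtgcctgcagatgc
The Kcna4 window held 3 GC boxes, those of Kcnj3 and Kcna2 held 1 each and that of Kcnj12 held 0. Kcnj3 also held 1 CCAAT box, and none of the 4 windows held TGACG or TATAAA. CG dinucleotides numbered 10 in Kcnj3, 20 in Kcna4, 31 in Kcna2 and 4 in Kcnj12. A GC box was found in 50.6% of 83 windows of the family, which covered 58 of its genes, and in 35.7% of all 32851 windows. CCAAT was found in 30.1% of the family's windows and 37.4% of all windows, TGACG in 16.9% and 20.8%, and TATAAA in 4.82% and 13.6%. These matches describe letters and say nothing of factor binding in these mice.

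Kcnj12, the gene of the strong inward rectifier Kir2.2, had 9.01 and 9.05 in the ASX RNA, against 9.36 and 9.14 in the control RNA. It was lower on both arrays, at -0.357 and -0.090, but past 1.2-fold on array 1 only. The other strong rectifiers differed in sign. Kcnj2 (Kir2.1) had a mean of 0.048 with opposite signs on the arrays, Kcnj4 (Kir2.3) had 0.091, with 0.247 on array 1 and -0.064 on array 2, and Kcnj14 (Kir2.4) was below 0 on both arrays, at -0.114 and -0.087. Kcnj10, which encodes Kir4.1, the main astrocytic potassium channel, was nearly equal in both RNAs, at -0.014 and 0.007. Kcnj16, whose product Kir5.1 joins Kir4.1 in astrocytes, was below 0 on both arrays, at -0.227 and -0.017, and its 3 measured probes had means of -0.122, -0.169 and -0.126. Of the ATP-sensitive channel genes, Kcnj11 (Kir6.2, in neurons) had -0.080 and -0.072 and Kcnj8 (Kir6.1, in pericytes) had -0.197 and -0.012. The median of the 11 was -0.004.

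**Figure D3:**
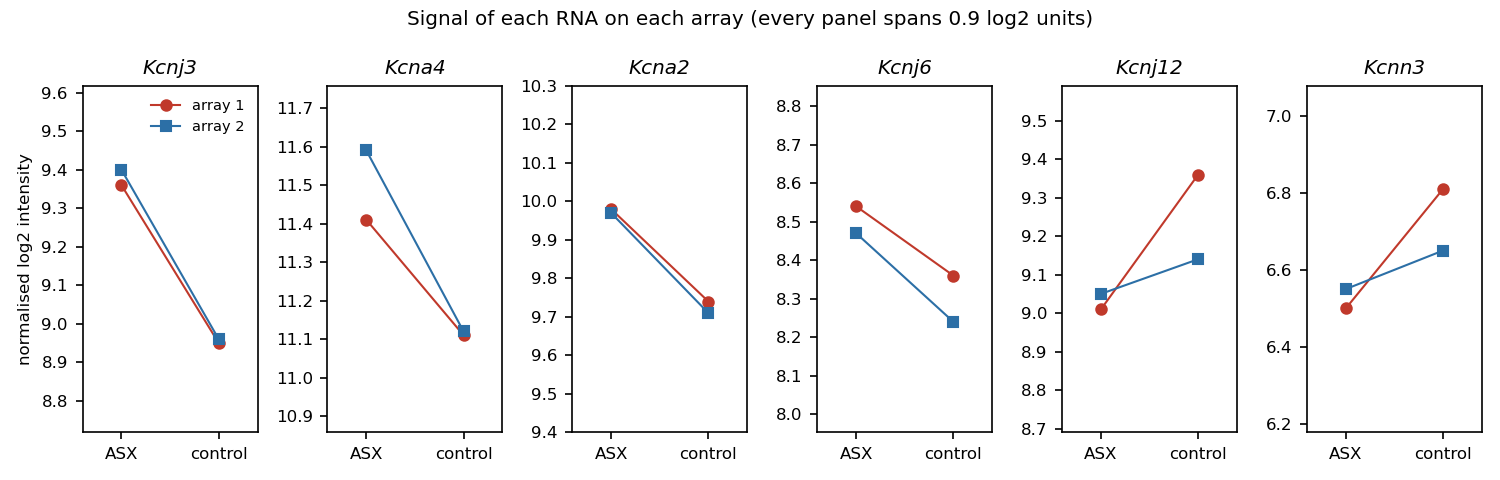
Normalised log2 intensity (vertical axis, a span of 0.9 in every panel) of the ASX RNA and the control RNA on array 1 (red circles) and array 2 (blue squares) for 6 Kcn genes. The ASX signal is above the control signal on both arrays for Kcnj3, Kcna4, Kcna2 and Kcnj6 and below it on both for Kcnj12 and Kcnn3.

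The Kv1 pore genes had a median of 0.253 over 5 of 6 measured, 0.246 on array 1 and 0.130 on array 2. It was 0.140 when Kcna3, which the background filter removed, was kept, and 0.056 for the letter as a whole, with the Kcnab genes. Kcna4, whose product Kv1.4 carries a fast-inactivating current in axons and terminals, had 11.41 and 11.59 in the ASX RNA, against 11.11 and 11.12 in the control RNA. Its log2 ratios were 0.294 and 0.467, a mean fold of 1.30 with an SD between arrays of 0.122. Kcna2, the gene of the axonal channel Kv1.2, had 9.98 and 9.97 in the ASX RNA, against 9.74 and 9.71 in the control RNA. Its ratios of 0.246 and 0.261 lay just under the log2 value of 0.263 that the 1.2-fold rule required. Kcna7, a Kv1 gene known mainly from muscle and heart, had 0.375 and 0.130. Kcna1, the gene of Kv1.1, which assembles with Kv1.2 and Kv1.4, had ratios of -0.052 and 0.108 around a mean of 0.028, and Kcna5 was at -0.071 and -0.013. So 3 of the 5 were above 0 on both arrays, 1 was below on both and 1 had opposite signs. Of all genes, 14.3% were above 0 on both and 26.4% below. The genes of the cytoplasmic beta subunits that bind Kv1 channels lay near 0, with means of 0.075 for Kcnab1, 0.026 for Kcnab2 and 0.037 for Kcnab3.

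The Kv2 to Kv4 genes held no member past the rule. The 4 Kv3 genes, some of which serve fast firing in interneurons, had means from -0.025 for Kcnc4 to 0.082 for Kcnc1. Kcnd2, the gene of Kv4.2, the A-type channel of pyramidal cell dendrites, had 0.259 on array 1 and -0.052 on array 2, and its other measured probe had -0.129 and 0.242, with the signs the other way round. Kcnd3, the gene of Kv4.3, had 0.314 and -0.008. Kcnc2 had a mean of 0.009. Of the 4 KChIP genes, calcium sensors that bind Kv4 channels, Kcnip3 was below 0 on both arrays with both of its probes, at means of -0.118 and -0.083. The means of the other KChIP genes were -0.052 for Kcnip1, 0.038 for Kcnip2 and 0.014 for Kcnip4.

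The electrically silent subunits (Kcnf, Kcng, Kcns, Kcnv), which modify Kv2 channels, had a median of -0.033 over 7 of 8 measured. Their means lay between -0.096 for Kcnv1 and 0.059 for Kcns1, and 6 of the 7 had opposite signs on the arrays. Opposite signs were also common over all 13320 genes, with 3826 above 0 on array 1 only and 4076 on array 2 only. Kcns2 had a mean of -0.068, Kcns3 -0.033, Kcnf1 -0.018, Kcng3 0.009 and Kcng4 -0.092. The 5 Kcne genes, auxiliary subunits that cross the membrane once, had a median of -0.081. Below 0 on both arrays were 3 of them, beside 26.4% of all genes. Kcne2, which partners a potassium channel of the choroid plexus, had 11.43 and 11.49 in the ASX RNA, against 11.61 and 11.56 in the control RNA, ratios of -0.181 and -0.071. Of 8 choroid plexus markers, all measured, 5 were also below 0 on both arrays and 2 were above, beside 26.4% and 14.3% of all genes. The summed signal of these markers was 60821 and 59839 in the ASX RNA, against 58567 and 62804 in the control RNA. Kcne4 had -0.086 and -0.168 and Kcne3 -0.076 and -0.060. The probe of Kcne4 was dim, with a mean log2 brightness of 6.53. Its mean ratio ran from -0.358 to 0.020 over the settings with both arrays. Kcne1l had a mean of -0.081, and Kcne1, the highest of the group, had 0.181 and -0.044. In whole tissue, fewer cells of a type and less RNA per cell cannot be told apart.

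Of the 7 EAG, ERG and ELK genes (Kcnh), Kcnh7 had the highest mean. Kcnh7, the gene of Erg3, had 7.74 and 7.61 in the ASX RNA, against 7.57 and 7.41 in the control RNA. Its ratios of 0.171 and 0.194 differed by little between the arrays, and those of Kcnh8 (0.111 and 0.139) and Kcnh5 (0.056 and 0.170) were also above 0 on both, all under 1.2-fold. Kcnh3, the gene of Elk2, which limits excitability in forebrain neurons, had the lowest mean, -0.099, from 0.039 and -0.236. Kcnh1, Kcnh2 and Kcnh6 had means of -0.027, -0.032 and -0.068. The 4 Kcnq genes had a median of -0.048. Kcnq3, whose product is part of the M-channel, had ratios of -0.005 and 0.130, the highest mean of the 4, and Kcnq5 had -0.219 and -0.067. Kcnq1 was near 0, at a mean of -0.013.

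The small- and intermediate-conductance calcium-activated genes (Kcnn) had a median of -0.155 over 3 of 4 measured, -0.264 on array 1 and -0.045 on array 2. Kcnn3, the gene of SK3, had 6.50 and 6.55 in the ASX RNA, against 6.81 and 6.65 in the control RNA. Kcnn1, the gene of SK1, had 10.15 and 10.39 in the ASX RNA, against 10.41 and 10.43 in the control RNA. Both were past 1.2-fold on array 1 alone, with ratios of -0.308 and -0.264, and had -0.098 and -0.045 on array 2. The probe of Kcnn3 was dim, with a mean log2 brightness of 6.63, beside 6.47 for Kcna3, which the background filter removed. The mean ratio of Kcnn3 ran from -0.421 to -0.070 over the settings with both arrays. Kcnn2, the gene of SK2, the subunit known for the afterhyperpolarization and synaptic plasticity in CA1, had -0.178 and 0.272, the largest spread between arrays of any measured member. The Cy3 label was the brighter on both arrays. Over the 10 spots of its probe the ratio averaged over the arrays had an SD of 0.026. The SD of 0.318 between the arrays is an unlike measure, since a dye effect cancels in that average. The large-conductance channel gene Kcnma1 had 0.047 and 0.064, its neuronal beta subunit gene Kcnmb4 -0.069 and 0.017, and Kcnmb2 -0.027 and -0.259. Kcnu1, a sperm channel gene, had -0.222 and 0.114. Kcnt1, the gene of a sodium-activated channel, had a mean of -0.019.

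The 8 measured tandem-pore genes ranged from a mean of -0.099 for Kcnk13 to 0.052 for Kcnk10, with a median of -0.012. Kcnk1 and Kcnk10 were above 0 on both arrays, and Kcnk4, the gene of the mechanosensitive channel TRAAK, was at -0.025 and -0.023. Kcnk2, the gene of the related channel TREK-1, had 0.132 and -0.103. Kcnk3, Kcnk6 and Kcnk12 had means of -0.078, -0.060 and -0.001. Kcnk13, a channel gene that microglia express, had -0.297 on array 1 and 0.100 on array 2. Of 6 microglial markers, 3 lay below 0 on each array and 0 above, beside 26.4% and 14.3% of all genes. The summed signal of these markers was 13586 and 12207 in the ASX RNA, against 13475 and 13521 in the control RNA. Whether the signal of Kcnk13 followed those cells was not tested.

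The 9 members that were not measured gave no comparison. Kcnd1, Kcnj1, Kcnj5, Kcnj15 and Kcnv2 were not well above background for either RNA on either array. Kcna3, Kcnk5, Kcnmb1 and Kcnn4 were above it for some RNAs or arrays, and none of the 9 was above it for 1 RNA alone on both arrays.

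Different probes of a gene gave a measure of how far a value depended on the probe. Of 18 members with several measured probes, the means had the same sign in 12. They had opposite signs in 6, among them Kcnv1, Kcnc1, Kcnt1, Kcnc2 and Kcnn2. The largest gap was in Kcnv1, a silent subunit gene, with -0.028 and -0.164 on the arrays from its brighter probe and 0.118 and 0.165 from the other. In the other 5 the probes differed by 0.083 or less. Kcnj3, Kcna4, Kcna2, Kcnj6 and Kcnj12 were each read by 1 measured probe, so this check was not possible for them.

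Partner genes without a Kcn symbol also lay near equal levels. Of 28 partners, which scaffold, traffic or modify potassium channels or carry related currents, 22 were measured, with a median of 0.019. None passed the rule, 4 were above 0 on both arrays and 2 below, beside 14.3% and 26.4% of all genes. Abcc8, the sulfonylurea receptor gene that pairs with Kcnj11, had 0.077 and 0.133. Dlg4, the gene of the scaffold PSD-95, which clusters Kv1 channels, had -0.258 and -0.135, the lowest mean. Vapb, whose product binds Kv2 channels at contacts with the endoplasmic reticulum, had the highest mean, 0.245, from 0.508 and -0.018. The voltage-gated sodium and calcium channel genes, with 25 of 30 measured, had a median of -0.003. In that family 1 gene was higher by the rule and 0 were lower, beside 0.233% and 0.330% of all genes. The higher one was Cacna1d, the gene of the L-type calcium channel subunit Cav1.3, at 0.567 and 0.285.

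Markers checked the tissue and the cells it held. Of 10 genes of hippocampal neurons, 9 were measured, Prox1, Calb1 and Wfs1 among them, and Bok had no matched probe. Their median was 0.034, 2 of the 9 were above 0 on both arrays and 0 below, beside 14.3% and 26.4% of all genes. The summed signal of the 9 was 162581 and 156728 in the ASX RNA, against 154755 and 160734 in the control RNA. Zbtb20 was the highest at 0.094 and 0.457, and Wfs1 the lowest at -0.189 and 0.018. The striatal, thalamic and habenular, and meningeal lists had medians further from 0 than the other marker lists, while the choroid plexus list did not. Below 0 on both arrays were 7 of 8 striatal genes (median -0.211) and 4 of 6 measured thalamic and habenular genes (median -0.157), beside 26.4% of all genes. Above 0 on both were 6 of 8 meningeal genes (median 0.221), beside 14.3% of all genes. The summed striatal signal was 23213 and 21712 in the ASX RNA, against 28242 and 29177 in the control RNA. The thalamic sum was 4691 and 4430 in the ASX RNA, against 5499 and 5142 in the control RNA. The meningeal sum was 22911 and 23805 in the ASX RNA, against 23539 and 21165 in the control RNA. Adora2a had the highest mean of the striatal list, 0.105. Extremes were Tnnt1 at -0.455 and Tcf7l2 at -0.138 for the thalamic list, and Bgn at 0.277 and Dcn at 0.003 for the meningeal list. Interneuron, astrocyte, oligodendrocyte, and endothelial and pericyte lists had medians of -0.067, -0.042, -0.051 and -0.033. Their extremes ran from Npy at -0.144 to Cck at 0.051, from S100b at -0.121 to Slc1a2 at 0.222, from Mobp at -0.124 to Cnp at -0.004, and from Cldn5 at -0.204 to Pdgfrb at 0.235. The microglial list had a median of -0.071, with Tmem119 at -0.166 and Cx3cr1 at -0.022, and the choroid plexus list -0.068, with Otx2 at -0.189 and Aqp1 at 0.200. The part of these cells and tissues in the values of the channel genes was not tested.

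The values for Kcnj3 and Kcna4 depended on how the arrays were scaled, as the plot by setting shows. With each array centred on its median in place of loess, the median of all genes was -0.159. Kcnj3 still passed the 1.2-fold rule there, at 0.301 and 0.341, while Kcna4 had 0.121 and 0.261 and did not. With scaling on the spike-in RNAs, also in place of loess, the median of all genes was -0.350, Kcnj3 had -0.037 and 0.298, and Kcna4 had -0.218 and 0.217. Relative to the median of all genes, both of these settings gave Kcnj3 0.480 and Kcna4 0.350, beside 0.44 and 0.40 as reported. These settings differ only by a constant on each array, so this value is the same in both by construction. Kcna2 had means of 0.116 with median centring and -0.074 with spike-in scaling, and Kcnj6 had 0.157 and -0.034. The median of the Kv1 pore genes was 0.116 and -0.074 in the same order, and that of the Kcnn genes -0.164 and -0.355. Above and below 0 on both arrays were 14 and 20 members as reported, 15 and 36 with median centring, 0 and 53 with spike-in scaling, and 15 and 16 with the scanner's log ratios. As reported, 14.3% and 26.4% of all genes were so, and these shares were not counted in the other settings. The median of all genes also moved, and was -0.023 with the scanner's log ratios. The counts are therefore not read as a trait of the family.

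**Figure D4:**
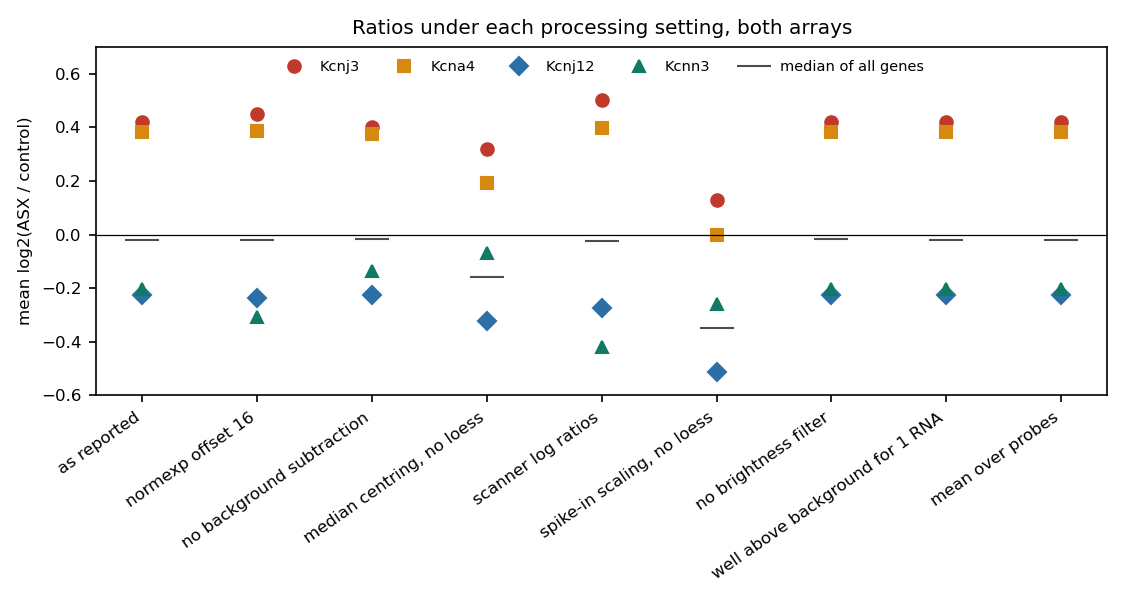
Mean log2 ratio of ASX over control over both arrays (vertical axis) for Kcnj3, Kcna4, Kcnj12 and Kcnn3 and the median of all measured genes with a symbol (bars) under 9 processing settings (horizontal axis). Kcna4 is at -0.000211 with spike-in scaling. Kcnj3 and Kcna4 lie above the median of all genes in each setting and Kcnj12 below it. Kcnn3 lies above it with median centring and with spike-in scaling, which give each gene the same distance from it by construction.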

How the data were processed

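Spots were quantified by the submitters in Agilent Feature Extraction, version 11.0.1.1, per the submitters' processing notes. The deposited intensity was the median signal of each spot with its local background, per the file headers, not normalized. The scanner's log10 ratio was Cy5 over Cy3, per the file headers. The deposited value table was within 5e-08 of the log10 ratio of the scanner's processed intensity, with medians of 0.00503 and 0.00826. Flags (other values) were the scanner's, per the file headers. Here limma 3.58.1 in R 4.3.3 applied normexp (offset 50) and loess with control spots at weight 0. Log2 ratios were turned to ASX over control, and spots of a probe averaged; signals of each RNA followed Aquantile. Accessions matched 1 RefSeq symbol (GRCm38.p6) for 23374 of 41174 probes; 30082 probes passed the background filter. The scanner placed 77.8% and 76.7% of spots well above background for the ASX RNA and 78.2% and 75.8% for the control RNA, and no spot was saturated. Both arrays share 1 slide and scan. Their number limits the precision. The alternatives tried were the offset, background subtraction, median centring, spike-in scaling, the scanner's ratios, the value table, brightness filters, the probe rule and each array alone. Scripts were tested on simulated data.

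The members, lists and rules were chosen with earlier results of these data known. Named were members past 1.2-fold, the highest and lowest of each subfamily and list, and members whose probes disagreed; others were named by role, after their values were seen. Some members and list genes were counted in the totals but are not reported here by name.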

Additional observations from a re-analysis of the deposited data

How the results depend on the processing

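The mean of Kcnj3 was above 0 under all settings with both arrays (0.130 to 0.501), and that of Kcnj12 was below 0 in all (-0.513 to -0.224). Kcna4 had 0.191 to 0.398 under those settings except spike-in scaling, which also left out loess and where its mean was -0.000211 and the median of all genes was -0.350; median centring alone, without loess, gave it 0.191. With spike-in scaling Kcnj3 had -0.037 on array 1, so its direction held there only in the mean. Kcnj3, Kcnj12 and Kcna4 were each read by 1 probe, so the brightness filters and the mean over probes could not change their values. For each of them the deposited value table gave the same value as the scanner's log ratios. The ratios the spike-ins were meant to have are not given in the sources used here. The count of members 1.2-fold higher was 2 as reported, 3 with the scanner's log ratios and the deposited value table (Kcna2 joined), 1 with median centring, 0 with spike-in scaling, and 0 at 1.5-fold. Of all genes, 0.233%, 0.465%, 0.173%, 0.0375% and 0.0300% were higher in the same order. The count lower was 0 as reported, 1 with median centring (Kcne2) and 16 with spike-in scaling. Of all genes, 0.330%, 3.6% and 32.3% were lower in the same order. The family median was -0.001 with the mean over probes, -0.120 with median centring and -0.311 with spike-in scaling. In the last 2 it lay 0.040 above the median of all genes. They differ only by a constant on each array, so this distance is the same in both by construction. On 1 array alone, the family median ran from -0.017 to -0.005. The higher count was 4 on array 1 and 3 on array 2, beside 4.11% and 2.51% of all genes. The lower count was 4 and 1 in the same order, beside 5.32% and 3.99% of all genes. Of the 69 measured members, 41 moved by more than their SD between arrays with median centring, 60 with spike-in scaling, 17 with the scanner's log ratios or the deposited value table, 7 with an offset of 16, 1 without background subtraction and 1 with the mean over probes. These counts were not made over all genes, so they are not read as a trait of the family. The median of all genes itself moved from -0.019 to -0.159 with median centring and to -0.350 with spike-in scaling. No paired analysis was possible because the arrays were treated as 1 replicate of 1 comparison. Depth in the sense of signal over background limited 9 of 78 members, which gave no ratio.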
